A study of Drosophila melanogaster with 12 samples.

Results

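HNF4 mutant and control larvae of Drosophila melanogaster were compared after starvation on 6 of the 12 arrays of the study, 3 arrays per genotype, chosen by their sample labels alone. The mutant larvae carried HNF4(del33)/HNF4(del17), deletion alleles of the gene in trans, and are labelled HNF4 null. The control larvae carried EP2449(precise excision)/KG08976(precise excision), chromosomes from which P-elements had been removed precisely. Both genotypes ate a normal laboratory diet until late L2, were washed and then starved for 24 h on wet paper, and were taken as mid-L3 larvae. RNA came only from apparently healthy animals that had moulted to the third instar, so in both genotypes the arrays describe larvae that lived through the starvation. How many animals were pooled per sample is not given in the sources used here. The remaining 6 arrays, of fed larvae of the same genotypes, were used for the estimate of spread and to ask whether a genotype difference depended on diet. The labels name larvae and no dissected tissue, and in such RNA fewer cells of a type and less RNA per cell cannot be told apart.

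HNF4 is a nuclear receptor that binds fatty acids, and in mammals it drives genes of lipid, glucose and drug metabolism in liver and gut. In the fly larva it is known from the fat body, midgut and Malpighian tubules. A starving larva releases fatty acids from the fat body, couples them to coenzyme A and passes them as carnitine esters into mitochondria, where β-oxidation shortens them to acetyl-CoA. Very long and branched chains are shortened in peroxisomes.

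Values are intensities on a linear scale from the authors' dChip table of 9669 probe sets, with a median of 535 to 552 on the starved arrays. Differences are log2 values of mutant minus control with the standard error (SE) of the fit, 3 arrays per group, and a transcript is called when limma's p, adjusted over all probe sets by the Benjamini-Hochberg method, is under 0.05. Replicate arrays of a starved group correlated at r = 0.9835 to 0.9942, and arrays of different genotype at 0.9697 to 0.9782. The leading principal component of the 6 arrays held 57.4% of the variance and parted the genotypes. Control scores were -19.45, -13 and -17.01, and mutant scores 19.55, 9.95 and 19.96. Mutant starved replicate 2 stood apart on the second component (18.8% of the variance), at 18.87 against -8.9 and -3.8 for the other mutant arrays, and control starved replicate 2 lay at -10.1 against 0.84 and 3.1. Estimated array weights were lowest for these arrays among the 6, at 0.454 and 0.877. The 3′ to 5′ signal ratio of the actin control probes was 1.3 to 1.56 on control and 1.43 to 1.54 on mutant arrays, and that of the GAPDH control probes 2.21 to 2.47 and 2.03 to 2.52. That of the eIF-4a control probes was 2.65 to 3.13 and 2.81 to 3.37. The ranges of each ratio thus overlapped between the genotypes. They did not all overlap between the diets, since on fed arrays the GAPDH ratio was 1.47 to 1.9 and the eIF-4a ratio 3.58 to 4.85. The part of this in the comparison of diets was not tested.

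In starved larvae 736 of 9669 probe sets were called, which is 7.61%. Of these, 378 were higher in mutants (3.91%) and 358 lower (3.7%), and 143 changed at least 2-fold, namely 99 lower and 44 higher. At least 8-fold changes were seen for 4 that rose and 1 that fell. The median difference was 0.50 among those higher, -0.68 among those lower and -0.01 over all probe sets. The values of the groups did not overlap for 729 of the 736, against 29.7% of all probe sets. Calls and overlap rest on the same arrays, so this gives the calls no added support. Counted as 1 probe set per named gene, 633 of 7442 genes were called (8.51%), with 4.34% higher and 4.17% lower, and the values of 32.4% did not overlap. These shares are the background for the gene lists, in which a gene counts as risen or fallen only where it was called. The count was 940 without mutant starved replicate 2 and 576 without control starved replicate 2, and 329, 358, 406 and 363 without control replicates 1 and 3 and mutant replicates 1 and 3. It was 376 with the series matrix, the other deposited table of the same arrays, counted over all its 18769 probe sets. These 376 include 74 calls of probe sets that the dChip table lacks. Of the 214 called genes named here, 105 kept their call under every alternative and array omission tried, apart from a minimum fold. The rest are given with limits, but not every setting that ended a call is named. Values of the series matrix ran lower, with medians of 98.2 to 113.3 on the starved arrays and 18.82% of values under 16. Its genes were not screened by the cut that follows, and their differences may be uncertain in size too. In the dChip table a difference is uncertain in size where the mean of the lower group was under 254, the lowest 25th percentile of a starved array. This holds for CG10814, CROT, Acox57D-d, CG16904, Miox, Cyp4e3, Cyp4d20, Cyp310a1, GstT3, CG2065, CG10553, CG13659, CG18765, sug, CG10073, CG10081, CG10051, Obp19c, PGRP-LB, Cpr51A, Cpr76Bd, CG9289, Trs23, Prosalpha6T and NaPi-T.

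**Figure D1:**
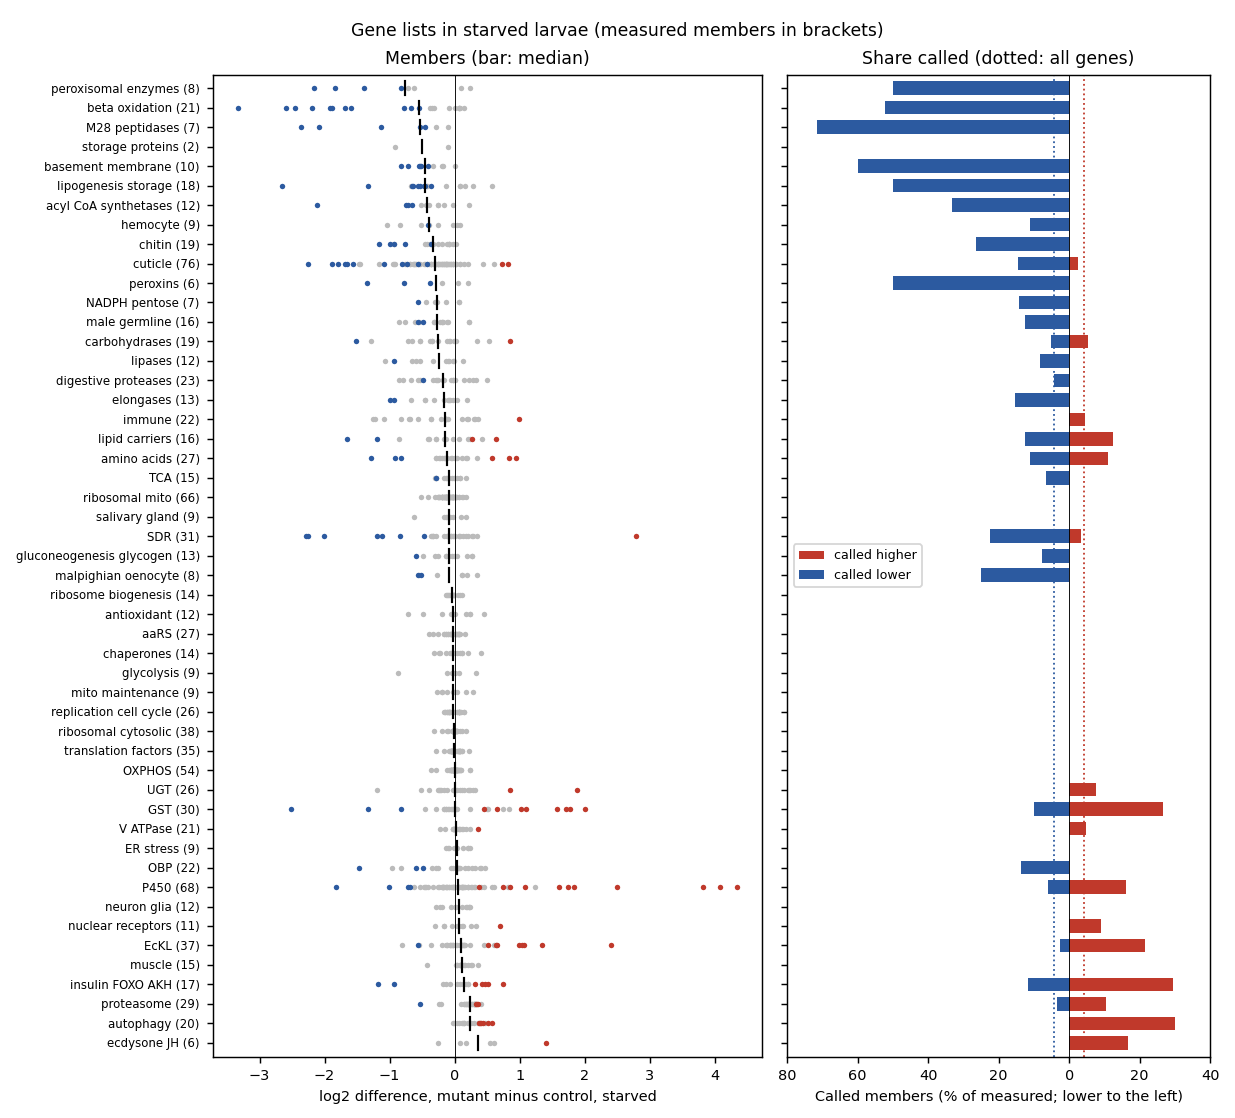
Log2 differences of the measured members of each gene list in starved larvae (left: points, called higher in red, called lower in blue, not called in grey; black bar, median) and the percentage of members called in each direction (right; dotted lines, the share among all 7442 genes, 4.34% higher and 4.17% lower). Lists are ordered by their median, from peroxisomal enzymes at -0.77 to the ecdysone and juvenile hormone list at 0.36.

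The targeted gene was not lower in the labelled mutants. Hnf4 (CG9310, chromosome arm 2L) read 1736, 1818 and 1937 on the control arrays and 2784, 2938 and 3190 on the mutant arrays. Every mutant array lay above every control array, a difference of 0.70 ± 0.08 (SE, n = 3 per group, limma adjusted p = 0.000396). The place of the probes with respect to the deleted stretches is not given in the sources used here. The labels are therefore not checked by it, and the mutants are named as labelled.

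Many transcripts of mitochondrial β-oxidation were lower in the starved mutants, and the thiolase gene yip2 fell more than any other probe set of the table. Of 21 measured genes of this pathway and its carnitine shuttle, 11 fell and 0 rose, at a median difference of -0.55, against 4.17% lower among all genes. yip2, which makes the last cut of each cycle, read 6870, 5930 and 7310 in controls and 628, 774 and 589 in mutants. The mutant arrays were all far below the lowest control array, a 10.1-fold fall (-3.34 ± 0.16, adjusted p = 2.77e-07). The hydroxyacyl-CoA dehydrogenase scu, which acts just before the thiolase, went from 6591, 6163 and 7255 to 1038, 1457 and 1196, again without overlap (-2.45 ± 0.12, adjusted p = 2.77e-07). CG4598, an enoyl-CoA isomerase needed for unsaturated chains, had values of 2421, 2066 and 2514 in controls and 346, 451 and 361 in mutants (-2.60 ± 0.11). The similar gene CG4592 changed by -0.55 ± 0.11 with much smaller distances between the arrays.

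Other enzymes of the cycle fell by smaller amounts. The acyl-CoA dehydrogenase for very long chains, Acadvl, differed by -1.91 ± 0.08 and the short chain enzyme Arc42 by -1.69 ± 0.09. The trifunctional protein's subunit Mtpbeta differed by -1.89 ± 0.10. The electron acceptor wal, the α subunit of the electron transfer flavoprotein, was lower by a difference of -0.78 ± 0.08, and the enoyl-CoA hydratase Echs1 by -0.67 ± 0.09. All 11 called genes kept their call under every alternative except a minimum of 1.5-fold, which ended that of CG4592, with 12 called without mutant starved replicate 2 and 11 without control starved replicate 2.

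Transcripts of the carnitine shuttle were not lowered as a whole. The carnitine/acylcarnitine carrier colt read 3696, 3340 and 4077 in controls and 755, 901 and 782 in mutants, with every mutant value under 1000 and a difference of -2.19 ± 0.09. CPT2, which frees acyl-CoA on the inner side of the membrane, changed by -1.60 ± 0.09. The outer palmitoyltransferase whd, the entry step, read 3884, 4181 and 4312 and 3530, 3266 and 3187, with mutants just below the controls, and its difference of -0.31 ± 0.10 was not called (adjusted p = 0.103). In fed larvae the difference of whd was -0.87 ± 0.10 and was called, and the difference between the diets was not called (0.56 ± 0.15, adjusted p = 0.0765). Enzymes of carnitine synthesis fell as well. They were the trimethyllysine hydroxylase Tmlh (-1.41 ± 0.14) and the butyrobetaine hydroxylase-like genes CG5321 (-2.05 ± 0.12) and CG10814 (-2.17 ± 0.30). The values of CG10814 were 394, 1114 and 774 in controls and 166, 181 and 123 in mutants, so its controls spread widely while all mutants lay below them. The carnitine acetyltransferase CRAT (-1.05 ± 0.14) kept its direction and lost its call in the series matrix (adjusted p = 0.0779).

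Peroxisomal enzymes fell with the mitochondrial ones. Of 8 measured members 4 fell and 0 rose, at a median of -0.77. CROT, the octanoyltransferase that passes shortened chains on to carnitine, read 1003, 1022 and 1187 in controls and 231, 235 and 247 in mutants. The mutant values lay close together and far below the controls (-2.17 ± 0.23, adjusted p = 0.000208). The acyl-CoA oxidase Acox57D-d, the opening step of the peroxisomal cycle, went from 645, 551 and 591 to 167, 178 and 154 (-1.84 ± 0.09). Its neighbour Acox57D-p read 1358, 1329 and 1629 and 1106, 1632 and 2023, overlapped and was not called (0.10 ± 0.23). The multifunctional enzyme Mfe2, the following step, changed by -1.40 ± 0.16. ScpX, a peroxisomal thiolase, changed by -0.82 ± 0.19, and its call was lost without control or mutant replicate 1 or 3 (adjusted p up to 0.101) and in the series matrix. Catalase (Cat) read 6038, 5033 and 6198 and 2879, 4426 and 3317. Its values did not overlap, mutant starved replicate 2 was nearest the controls, and the difference of -0.72 ± 0.29 was not called (adjusted p = 0.189).

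Single genes outside that list with a link to peroxisomal metabolism were called as well. CG9577, a dienoyl-CoA isomerase-like gene, went from 3304, 2886 and 3422 to 467, 532 and 487, a 6.46-fold fall and the smallest p of all falls (adjusted p = 5.75e-08). The dehydrogenase Dhrs4, whose human relative is peroxisomal, read 3033, 2664 and 3226 in controls and 583, 630 and 613 in mutants, and Hsdl2, another enzyme with a peroxisomal relative in human, 3263, 2730 and 3478 and 719, 849 and 774. Both parted the genotypes clearly, by -2.29 ± 0.12 and -2.01 ± 0.11. Hacl, the lyase of α-oxidation, changed by -1.16 ± 0.14, and Acox3 by -0.93 ± 0.23. The call of Acox3 was lost without any 1 of control replicates 1, 2 and 3 and mutant replicates 1 and 3 (adjusted p up to 0.127). Amacr, the racemase that readies branched chains for oxidation, is measured in the series matrix alone. There it read 805, 850 and 931 in controls and 108, 84.9 and 92 in mutants (-3.19 ± 0.18, adjusted p = 3.18e-05).

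Peroxins build the peroxisome and import its enzymes. Of 6 that the dChip table holds, 3 fell and 0 rose (median -0.28). Pex5, the receptor that carries enzymes into the organelle, read 2115, 2199 and 2423 in controls and 898, 873 and 871 in mutants. The mutant arrays were nearly identical to each other, and the difference was -1.35 ± 0.07 (adjusted p = 3.41e-07). Pex13, a part of its docking site, changed by -0.78 ± 0.13, and Pex14, the other part, by -1.30 ± 0.13 in the series matrix. Pex3, which inserts membrane proteins, differed by -0.38 ± 0.08, and the membrane protein gene Pex16 and the ubiquitin ligase Pex10 by -0.85 ± 0.13 and -0.92 ± 0.17 in the series matrix. Pex19 (-0.19 ± 0.11), Pex23 (0.05 ± 0.06) and Pex7 (0.20 ± 0.14), the receptor of another import signal, were not called. The calls of Pex13 and Pex3 did not hold in the series matrix (adjusted p = 0.0835 and 0.344). Pex3 lost its call without control replicate 1 or 3 or mutant replicate 1 (adjusted p up to 0.0814), Pex16 without control replicate 1 or 3 (0.057) and Pex10 without any 1 of the 6 starved arrays (0.116).

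**Figure D2:**
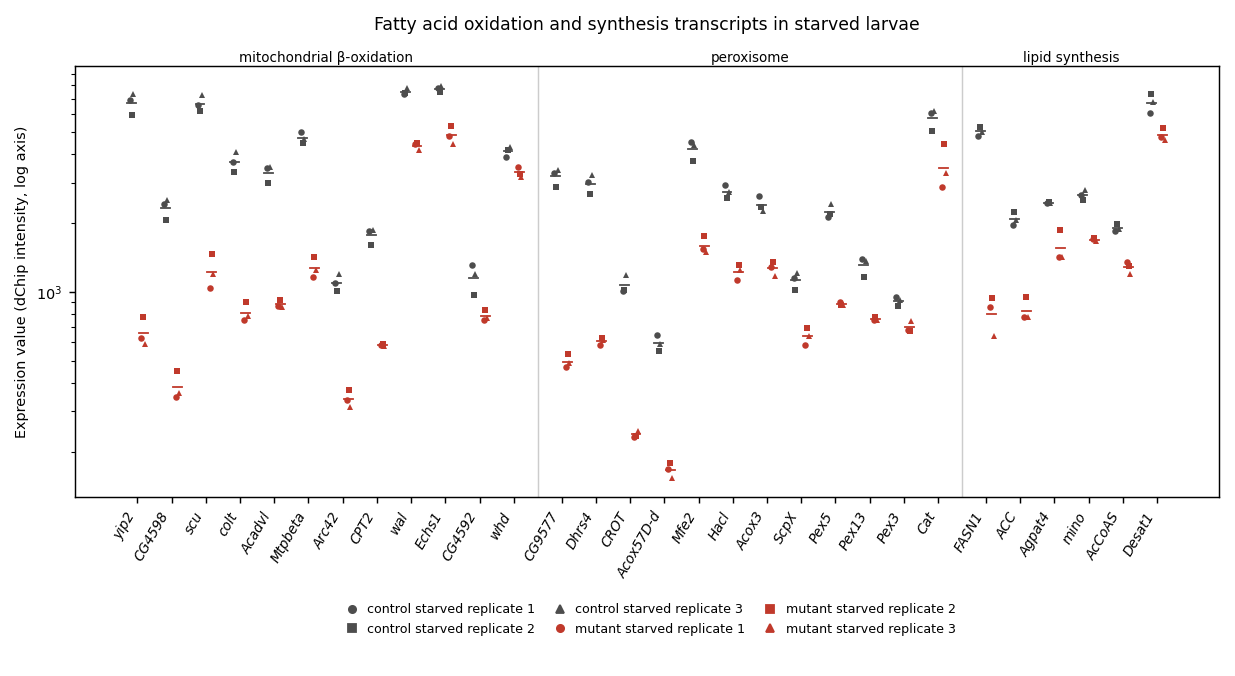
Expression values in each of the 6 starved arrays (dChip intensity, log axis; grey, control; red, mutant; marker shape, replicate; bar, geometric mean of 3 arrays) of fatty acid oxidation, peroxisome and lipid synthesis genes. All genes shown but whd and Cat were called lower, and for no gene shown do the groups overlap.

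Many transcripts of fatty acid synthesis were lower too. Of 18 measured genes of fatty acid and triglyceride synthesis and lipid droplets, 9 fell and 0 rose (median -0.45). Fatty acid synthase FASN1 read 4810, 5275 and 5002 in controls and 861, 936 and 638 in mutants, a 6.27-fold fall with no mutant array above 1000 (-2.65 ± 0.13, adjusted p = 3.41e-07). ACC, the carboxylase that supplies its building block, went from 1960, 2223 and 2068 to 773, 944 and 777 (-1.33 ± 0.20). The acyltransferase mino, the opening step of glycerolipid synthesis, changed by -0.64 ± 0.10. These 3 kept their call under every alternative. Smaller falls were called for the acyltransferases Agpat4 (-0.66 ± 0.15), Agpat3 (-0.46 ± 0.13) and Gpat4 (-0.53 ± 0.14), the acetyl-CoA synthetase AcCoAS (-0.57 ± 0.14), the desaturase Desat1 (-0.47 ± 0.11) and the transcription factor SREBP (-0.37 ± 0.10). Each of these lost its call without 4 to 6 of the 6 starved arrays (adjusted p up to 0.174). These arrays were control replicates 2 and 3 and mutant replicates 1 and 3 for every gene, and others for some. The number of called members was 3 without control starved replicate 2 and 7 without mutant starved replicate 2. It was 4 in the series matrix.

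Genes that release or hold stored triglyceride were not called. The lipase of lipid droplets bmm read 5412, 5391 and 5801 in controls and 6121, 5730 and 6674 in mutants, and these ranges overlapped (0.16 ± 0.16). The perilipins Lsd-1 (-0.43 ± 0.16) and Lsd-2 (-0.13 ± 0.09) and the diacylglycerol acyltransferase mdy (0.08 ± 0.09) were not called either. Of 12 acid and intestinal lipases 1 fell, CG5966 (-0.93 ± 0.16), and its call was lost in the series matrix (adjusted p = 0.085).

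Acyl-CoA synthetases, which activate fatty acids, fell in 4 of 12 and rose in 0 (median -0.42). CG6178 read 1956, 1828 and 1988 in controls and 409, 481 and 447 in mutants and was the most lowered of them (-2.11 ± 0.14, adjusted p = 3.11e-06). The very long chain enzyme bgm (-0.75 ± 0.11) and Acsf2 (-0.72 ± 0.13) followed, and Acsl (-0.65 ± 0.12) lost its call in the series matrix (adjusted p = 0.501). In the elongation cycle of very long chains the dehydratase Hacd1 (-0.91 ± 0.10) and the reductase Sc2 (-1.03 ± 0.10) fell. Of the 13 elongases of the cycle 2 fell, sit (-1.0 ± 0.21) and CG16904 (-0.94 ± 0.14), and 0 rose. sit lost its call without control or mutant replicate 1 or 3 (adjusted p up to 0.0779). Of 16 lipoproteins, receptors and sterol carriers, 2 rose and 2 fell. Those lower were the fatty acid binding protein fabp, with 10904, 11022 and 12304 in controls and 3628, 7314 and 4550 in mutants, and the sterol carrier Npc2e (-1.65 ± 0.24). The highest mutant value of fabp was again that of replicate 2 (-1.20 ± 0.22). Npc2b (0.64 ± 0.08) and the lysosomal sterol transporter Npc1a (0.27 ± 0.07) were higher, the latter with a call lost without 5 of the 6 starved arrays, all but mutant replicate 2 (adjusted p up to 0.168).

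Acyl-CoA binding proteins varied between the mutant arrays. Acbp5 read 10992, 8933 and 11561 in controls and 1815, 7069 and 2512 in mutants, so mutant replicate 2 lay near the controls and the other mutant arrays far below (-1.71 ± 0.38, adjusted p = 0.02). Acbp2 had 7153, 6562 and 6817 and 2717, 4772 and 3237 (-0.98 ± 0.23). Both calls were lost without control or mutant replicate 1 or 3, and that of Acbp2 also without control replicate 2 (adjusted p up to 0.0856 and 0.105).

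Transcripts of central carbon metabolism moved little. Glycolysis had 0 of 9 genes higher and 0 lower (median -0.02), and the nuclear genes of the respiratory chain and ATP synthase 0 of 54 in either direction. The tricarboxylic acid cycle had 1 call of 15 genes, the succinyl-CoA synthetase subunit Scsalpha1 (-0.28 ± 0.07), which lost it in the series matrix and without any 1 of control replicates 1, 2 and 3 and mutant replicates 1 and 2 (adjusted p up to 0.13). Among 13 genes of gluconeogenesis, trehalose and glycogen the call was pyruvate carboxylase PCB, at 7725, 7709 and 7964 in controls and 5096, 6049 and 4506 in mutants (-0.59 ± 0.11). The phosphoenolpyruvate carboxykinase Pepck1 overlapped between the genotypes (-0.01 ± 0.22) and Pepck2 was not called (-0.49 ± 0.29). Of 7 NADPH-forming enzymes the isocitrate dehydrogenase Idh fell (-0.57 ± 0.10), with a call lost in the series matrix (adjusted p = 0.073), and malic enzyme Men was not called (-0.44 ± 0.15, mutants 4699, 6896 and 4264). Genes of mitochondrial DNA maintenance, fusion and fission had 0 of 9 called.

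Some single enzymes next to these pathways differed strongly. Sirup, an assembly factor of succinate dehydrogenase, read 7458, 6337 and 8799 in controls and 1549, 1830 and 2144 in mutants (-2.03 ± 0.24). The alkaline phosphatases Alp9 (-2.13 ± 0.37) and Alp10 (-1.54 ± 0.27), the inositol oxygenase Miox (-1.33 ± 0.17) and the sodium-coupled transporter SLC5A11 (-1.46 ± 0.08) were lower without overlap. Alp9 lost its call in the series matrix (adjusted p = 0.0609). The monocarboxylate transporter out was higher, at 1371, 1258 and 1868 against 421, 511 and 496 in controls (1.64 ± 0.14).

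Amino acid enzymes moved in both directions, 3 higher and 3 lower of 27. Both glutamine synthetases fell. The cytosolic Gs2 read 4476, 4436 and 4732 in controls and 1915, 1793 and 1874 in mutants, and the mitochondrial Gs1 5773, 6181 and 6124 and 3150, 3269 and 3184. The arrays of a genotype differed little from each other, and the differences were -1.29 ± 0.12 and -0.91 ± 0.15 (adjusted p = 8.28e-05 and 0.00383). GstZ2, an isomerase of tyrosine breakdown, was also lower (-0.83 ± 0.17), with a call lost without control replicate 1 or 3 or mutant replicate 1 (adjusted p up to 0.0737). Cystathionine γ-lyase (Cth) rose from 2726, 2461 and 2359 to 4058, 5915 and 4666 (0.94 ± 0.16), and the branched-chain aminotransferase Bcat (0.83 ± 0.13) and glycine N-methyltransferase Gnmt (0.58 ± 0.11) rose too. Tdc1, a tyrosine decarboxylase, read 2327, 2240 and 2439 in mutants against 1026, 1021 and 1051 in controls (1.18 ± 0.09). The purine synthesis enzymes Pfas (0.88 ± 0.12) and Gart (0.83 ± 0.21) were higher, Gart with a call lost without 5 of the 6 starved arrays, all but mutant replicate 1 (adjusted p up to 0.125).

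Cytochrome P450 genes, whose enzymes oxidise lipids, hormones and foreign compounds, included 3 of the 4 rises of at least 8-fold. Of 68 measured P450s 11 rose and 4 fell, against 4.34% and 4.17% of all genes, while the median of the family was 0.05, and -0.03 to 0.11 over the alternatives. Cyp6w1 read 556, 751 and 734 in controls and 12456, 12703 and 16548 in mutants, a 20.4-fold rise (4.35 ± 0.16, adjusted p = 5.75e-08). Cyp6a8 went from 679, 562 and 586 to 8290, 9841 and 13514 (17-fold) and Cyp6a2 from 426, 309 and 482 to 5157, 4387 and 7847 (14.1-fold). No control array of these 3 genes exceeded 800 and no mutant array was under 4000. Cyp4d14 had 255, 219 and 300 and 761, 1782 and 2254, and mutant replicate 1 was the lowest of a wide range (2.50 ± 0.33). Cyp4e2 rose from 4155, 3979 and 4320 to 10790, 12742 and 14439 (1.60 ± 0.12). Cyp6a20 (1.84 ± 0.24), Cyp4p1 (1.75 ± 0.27) and Cyp18a1 (0.85 ± 0.11), which inactivates ecdysteroids, were higher as well. These genes are close relatives, and a probe set may have measured more than 1 of them.

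P450s that fell were Cyp4e3 (401, 599 and 1125 in controls and 167, 190 and 195 in mutants, -1.82 ± 0.28), Cyp28d2 (-1.01 ± 0.26), Cyp6a18 (-0.72 ± 0.13) and Cyp4d20 (-0.68 ± 0.12). The controls of Cyp4e3 ranged widely while its mutants lay close together below them. Cyp310a1 (0.37 ± 0.10) lost its call without any starved array but mutant replicate 3 (adjusted p up to 0.15). Those of Cyp28d2, Cyp4d2 (1.08 ± 0.29) and Cyp4ac3 (0.75 ± 0.20) were lost without 5 or 6 of the starved arrays (control replicates 1, 2 and 3 and mutant replicates 1 and 3 for each, and mutant replicate 2 for Cyp4d2, adjusted p up to 0.176). The number of called P450s was 14 without mutant starved replicate 2, 12 without control starved replicate 2 and 12 in the series matrix.

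Of 30 glutathione S-transferases measured, 8 rose and 3 fell (median 0.01). The genes that rose belong to the delta and epsilon classes, the insect classes known for detoxification. GstD2 read 946, 1001 and 1032 in controls and 3063, 5410 and 3825 in mutants (2.01 ± 0.20, adjusted p = 0.000134), GstD3 changed by 1.57 ± 0.12, GstE3 by 1.72 ± 0.24 and GstE5 by 1.10 ± 0.15. GstD1 rose from 13392, 11716 and 12112 to 17796, 20399 and 20786 (0.66 ± 0.09). GstD7 had 436, 354 and 391 and 466, 2371 and 2173, so mutant replicate 1 lay just above the controls while the others lay far above. Its difference was 1.77 ± 0.47, and the call was lost without any 1 of control replicates 1, 2 and 3 and mutant replicates 2 and 3 (adjusted p up to 0.176). The theta class genes GstT3 (1355, 1190 and 1578 in controls, 197, 334 and 211 in mutants) and GstT1 (2166, 1827 and 2300 and 720, 965 and 818) fell, by differences of -2.51 ± 0.21 and -1.33 ± 0.12. GstE7 (1.02 ± 0.23) and GstE1 (0.46 ± 0.10) lost their calls in the series matrix (adjusted p = 0.0899 and 0.196). Both were also lost without control replicate 3 or mutant replicate 3, and GstE7 without control replicate 1 or 2 (adjusted p up to 0.0833 without 1 array).

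Other conjugating enzymes rose in part. Of 26 UDP-glycosyltransferases 2 rose, and Ugt35C1 with 662, 655 and 632 in controls and 2455, 2364 and 2372 in mutants had almost no spread within a genotype (1.88 ± 0.09, adjusted p = 2.77e-07). Ugt49B1 (0.85 ± 0.20) lost its call without control replicate 1, 2 or 3 or mutant replicate 3 (adjusted p up to 0.103). Of 37 genes like ecdysteroid kinases, a large insect family, 8 rose and 1 fell. CG6908 read 3024, 5516 and 8893 in mutants against 1126, 774 and 1162 in controls (2.40 ± 0.35), CG9498 2405, 3367 and 3138 against 1171, 1156 and 1154 (1.34 ± 0.13) and CG31436 717, 698 and 712 against 374, 362 and 337 (0.99 ± 0.08). CG10560 (1.04 ± 0.17) kept its call as well. CG10553 (1.07 ± 0.25), CG13659 (0.66 ± 0.16), CG31288 (0.64 ± 0.17), CG10550 (0.52 ± 0.10) and CG18765, the gene that fell (-0.56 ± 0.13), lost theirs without 2 to 5 of the starved arrays, each without control replicate 1 and mutant replicate 3 (adjusted p up to 0.15). The count of called members was 10 without mutant starved replicate 2 and 7 without control starved replicate 2.

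Of 31 short-chain dehydrogenases 7 fell and 1 rose (median -0.08). The gene that rose was CG2065, at 196, 170 and 232 in controls and 812, 1603 and 1985 in mutants (2.79 ± 0.30). Besides Dhrs4 and Hsdl2, CG10962 (-2.26 ± 0.35), CG3603 (-1.12 ± 0.13), CG7675 (-1.20 ± 0.22), the lipid droplet enzyme Ldsdh1 (-0.84 ± 0.14) and CG7601 (-0.47 ± 0.09) fell, the last 3 with calls lost in the series matrix (adjusted p = 0.0551, 0.0802 and 0.111). The mutant values of CG10962 were 351, 1040 and 367, with replicate 2 highest. The epoxide hydrolase Jheh2 (1.41 ± 0.14) and the metallothionein MtnA rose, MtnA from 13323, 10732 and 12895 to 21230, 21182 and 24484 (0.86 ± 0.16). CG1441, like fatty acyl-CoA reductases, was also higher (1.60 ± 0.29) and lost its call in the series matrix (adjusted p = 0.0821).

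The regulators of the antioxidant response did not move as a group. Of 12 antioxidant genes measured there, 0 rose and 0 fell. The transcription factor cnc (0.17 ± 0.09), its partner maf-S (0.24 ± 0.09) and glutamate-cysteine ligase Gclc (0.46 ± 0.18) were not called. Keap1, the inhibitor of cnc, is in the series matrix alone, where it read 280, 295 and 255 in controls and 725, 772 and 1331 in mutants (1.71 ± 0.25, adjusted p = 0.0126). That call was lost without control replicate 1 or 3 (adjusted p up to 0.057) and with the arrays of the starved groups alone. GstD9, also in that table alone, rose by 0.88 ± 0.11. Chaperones had 0 of 14 genes called and the unfolded protein response of the endoplasmic reticulum 0 of 9.

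**Figure D3:**
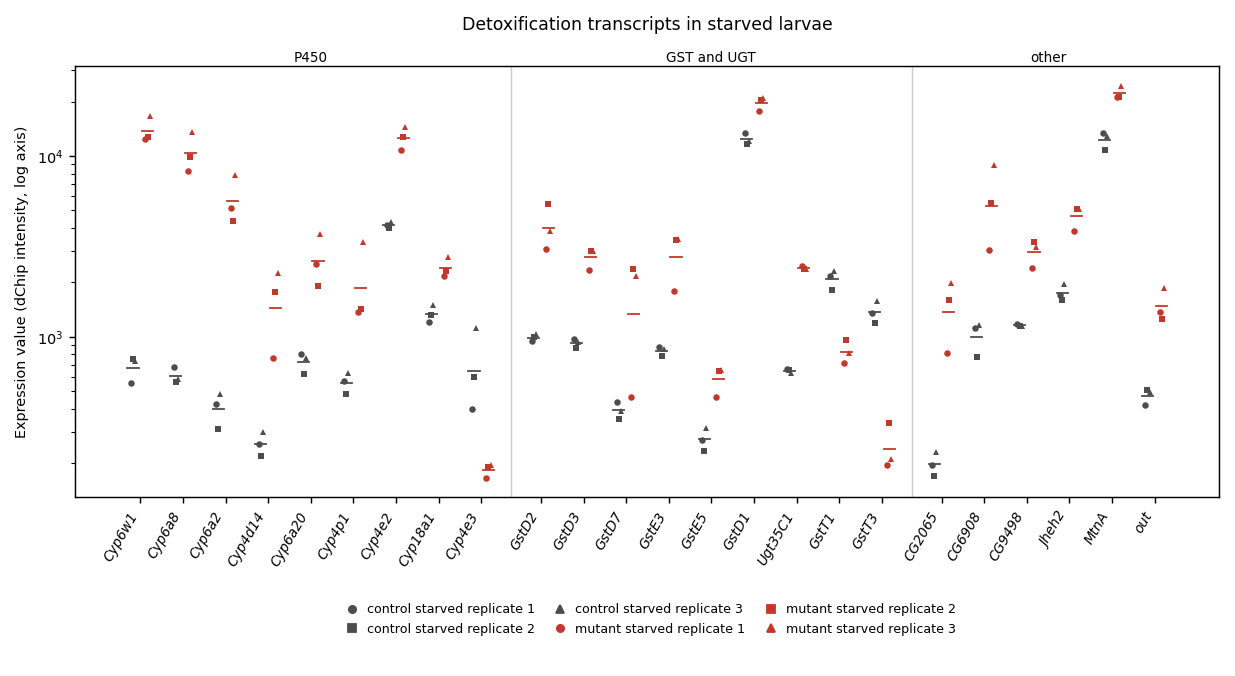
Expression values in each of the 6 starved arrays (dChip intensity, log axis; grey, control; red, mutant; marker shape, replicate; bar, geometric mean of 3 arrays) of detoxification genes. Cyp6w1, Cyp6a8 and Cyp6a2 lie under 800 on every control array and above 4000 on every mutant array, while Cyp4e3, GstT1 and GstT3 are lower in mutants.

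Nutrient signalling genes changed by smaller amounts. Of 17 measured genes of insulin, FOXO, TOR and adipokinetic hormone signalling, 5 rose and 2 fell (median 0.14). Sesn, a stress protein that restrains TOR, read 1865, 1721 and 1775 in controls and 2859, 3148 and 2976 in mutants (0.74 ± 0.10, adjusted p = 0.00137). The sugar-sensing partner bigmax (0.51 ± 0.09), the insulin receptor substrate chico (0.47 ± 0.11), the AMPK subunit SNF4Agamma (0.42 ± 0.10) and the kinase S6k (0.32 ± 0.09) were higher. AkhR, the receptor of the lipid-mobilising adipokinetic hormone, read 544, 497 and 540 and 257, 339 and 244 and was lower (-0.93 ± 0.15). The zinc finger gene sug was lower as well (-1.18 ± 0.24). ImpL2, a secreted protein that binds insulin-like peptides, read 867, 1068 and 1085 and 3126, 1777 and 2623 in the series matrix (1.29 ± 0.21). In the series matrix 1 of the 17 was called, bigmax. The calls of chico, SNF4Agamma, S6k and ImpL2 were each lost without control or mutant replicate 1 or 3, those of SNF4Agamma and S6k also without control replicate 2, and that of sug without control replicate 1 or mutant replicate 3 (adjusted p up to 0.171).

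Of 20 autophagy genes measured, 6 rose and 0 fell, and 18 of the 20 differences were above 0 (median 0.24), against 47% of all probe sets. The protease Atg4a, which prepares the autophagosome's lipid-linked protein, read 865, 850 and 847 in controls and 1277, 1298 and 1227 in mutants (0.57 ± 0.07, adjusted p = 0.000419). Atg18a, a membrane recruiter, went from 2164, 2305 and 2127 to 3285, 3054 and 3145 (0.52 ± 0.07). These changes were small, but the arrays of a genotype lay close together. Both kept their call under every alternative except a minimum of 1.5-fold, which ended both. Atg16 (0.37 ± 0.07) lost it in the series matrix, as did the kinase Atg1 (0.43 ± 0.10), Atg2 (0.40 ± 0.10) and Atg18b (0.39 ± 0.10). The calls of the last 3 were also lost without control or mutant replicate 1 or 3, and for Atg2 and Atg18b without control replicate 2 (adjusted p up to 0.147). The number called was 7 without mutant starved replicate 2, 4 without control starved replicate 2 and 3 in the series matrix, where the median was 0.41.

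Proteasome subunits shared a direction with few calls. Of 29 measured, 26 had a difference above 0 and the values of 26 did not overlap between the genotypes, against 32.4% of all genes, at a median of 0.23. Calls were 3 higher, Rpt3 (0.36 ± 0.09), Rpn13 (0.35 ± 0.10) and Rpn11 (0.33 ± 0.09), and 1 lower, the testis form Prosalpha6T (-0.53 ± 0.11, and -0.06 in the series matrix). With array weights 23 of the 29 were called, a setting in which 2439 of all 9669 probe sets were called, against 736 without weights. Without mutant starved replicate 2 the number was 3, and without control starved replicate 2 it was 2. All 4 calls were lost without control or mutant replicate 1 or 3 (adjusted p up to 0.186).

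No call was made in most lists of growth machinery, and their medians lay near 0, with a sign that changed between settings for cytosolic ribosomal proteins, translation factors, aminoacyl-tRNA synthetases and replication. Cytosolic ribosomal proteins had 0 of 38 genes called (median -0.01), mitochondrial ribosomal proteins 0 of 66 (-0.09), ribosome biogenesis 0 of 14 (-0.04), translation factors 0 of 35 (-0.01), aminoacyl-tRNA synthetases 0 of 27 (-0.02) and DNA replication and the cell cycle 0 of 26 (-0.02). Of the 66 mitochondrial ribosomal proteins, 56 had a difference below 0 and 10 above, against 47% above 0 over all probe sets. Their median stayed between -0.14 and -0.06 over the alternatives. Vacuolar ATPase subunits had 1 call of 21, Vha100-1 (0.36 ± 0.09), which was lost without any starved array but mutant replicate 2 (adjusted p up to 0.135). These counts come from limma, whose unadjusted p was under 0.05 for 1955 of the 9669 probe sets.

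Cuticle protein genes were lower in many cases and varied within the genotypes. Of 76 measured, 11 fell and 2 rose, 65 differences were below 0, and the median was -0.3. Lcp65Af read 4490, 997 and 3345 in controls and 367, 541 and 686 in mutants, so control replicate 2 lay near the mutants (-2.26 ± 0.50). Cpr67Fa1 had 1679, 607 and 1859 and 303, 616 and 301, and there control replicate 2 was below mutant replicate 2 (-1.69 ± 0.42). Cpr67Fa2 (5498, 2599 and 5521 and 730, 2346 and 914), Cpr92F (-1.80 ± 0.38) and Lcp65Ae (-1.66 ± 0.40) also had their lowest control value in replicate 2. These 5 genes lost their calls without control replicate 1 or 3 or mutant replicate 1, those of Cpr67Fa1, Cpr67Fa2 and Lcp65Ae also without mutant replicate 3 (adjusted p up to 0.142), and all 5 in the series matrix. The number of called cuticle genes was 20 without control starved replicate 2, 18 without mutant starved replicate 2, 36 with array weights and 5 in the series matrix. With array weights 2439 of all 9669 probe sets were called, against 736 without weights.

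Other cuticle genes kept their call without either of these arrays. Cpr78Cc went from 2685, 1345 and 2511 to 612, 803 and 727 (-1.56 ± 0.23) and Cpr11A from 4997, 3404 and 5215 to 1751, 2711 and 1937 (-1.09 ± 0.18), and Lcp65Aa fell as well (-0.56 ± 0.10). Cpr67B (3442, 2882 and 3567 and 5260, 5879 and 6356) and Cpr47Eb (5458, 5194 and 6511 and 8556, 10074 and 9752) were the genes that rose (0.82 ± 0.12 and 0.73 ± 0.13). All 5 kept their call under every alternative except a minimum of 1.5-fold, which ended that of Lcp65Aa. Cpr78Ca (-0.81 ± 0.19), Cpr51A (-0.73 ± 0.18) and Cpr76Bd (-0.42 ± 0.11) fell too, with calls lost without control or mutant replicate 1 or 3 (adjusted p up to 0.177).

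Genes of chitin synthesis, binding and turnover fell in 5 of 19 and rose in 0 (median -0.33). The deacetylase Cda4 read 2875, 2008 and 3201 in controls and 1166, 1615 and 1261 in mutants (-0.99 ± 0.19), and the chitinase Cht7 2311, 1639 and 2371 and 959, 1336 and 1020 (-0.93 ± 0.17). In both, control replicate 2 was the lowest control and mutant replicate 2 the highest mutant, with no overlap. The chitin-binding obst-A (-1.16 ± 0.26) and obst-B (-0.76 ± 0.21) and the chitin synthase kkv (-0.37 ± 0.10) lost their calls without control or mutant replicate 1 or 3, and kkv also without mutant replicate 2 (adjusted p up to 0.197).

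Basement membrane genes fell in 6 of 10 and rose in 0 (median -0.46). The collagen IV chain vkg read 8079, 7490 and 7987 in controls and 4706, 5503 and 4138 in mutants (-0.72 ± 0.13, adjusted p = 0.00684), and its partner chain Col4a1 9975, 9096 and 9940 and 6624, 7609 and 6258 (-0.51 ± 0.10). Papilin (Ppn, -0.83 ± 0.20), perlecan (trol, -0.55 ± 0.15), nidogen (Ndg, -0.53 ± 0.14) and peroxidasin (Pxn, -0.41 ± 0.11) were lower. vkg kept its call under every alternative. The other 5 lost theirs without control or mutant replicate 1 or 3, and trol and Ndg also without control replicate 2 (adjusted p up to 0.182), and 2 of the 10 were called in the series matrix.

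Blood cells and fat body make these proteins in larvae. Of 9 blood cell markers and prophenoloxidases Pxn fell and 0 rose. The prophenoloxidase PPO1 read 667, 659 and 619 in controls and 281, 467 and 240 in mutants and missed the threshold (-1.04 ± 0.29, adjusted p = 0.0526), as did PPO2 (-0.84 ± 0.25) and Hml (-0.51 ± 0.18). Summed over the 7 blood cell markers in the series matrix, the level was 4510 to 4796 on control arrays and 2532 to 3763 on mutant arrays, none of the 7 was under the floor of 16 on all starved arrays, and 0 of the 7 were called there. Summed over the 4 measured of 7 fat body markers it was 18701 to 21071 and 17003 to 22733, with Fbp1 under the floor on all of them. The part of cell numbers in the basement membrane genes was not tested.

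**Figure D4:**
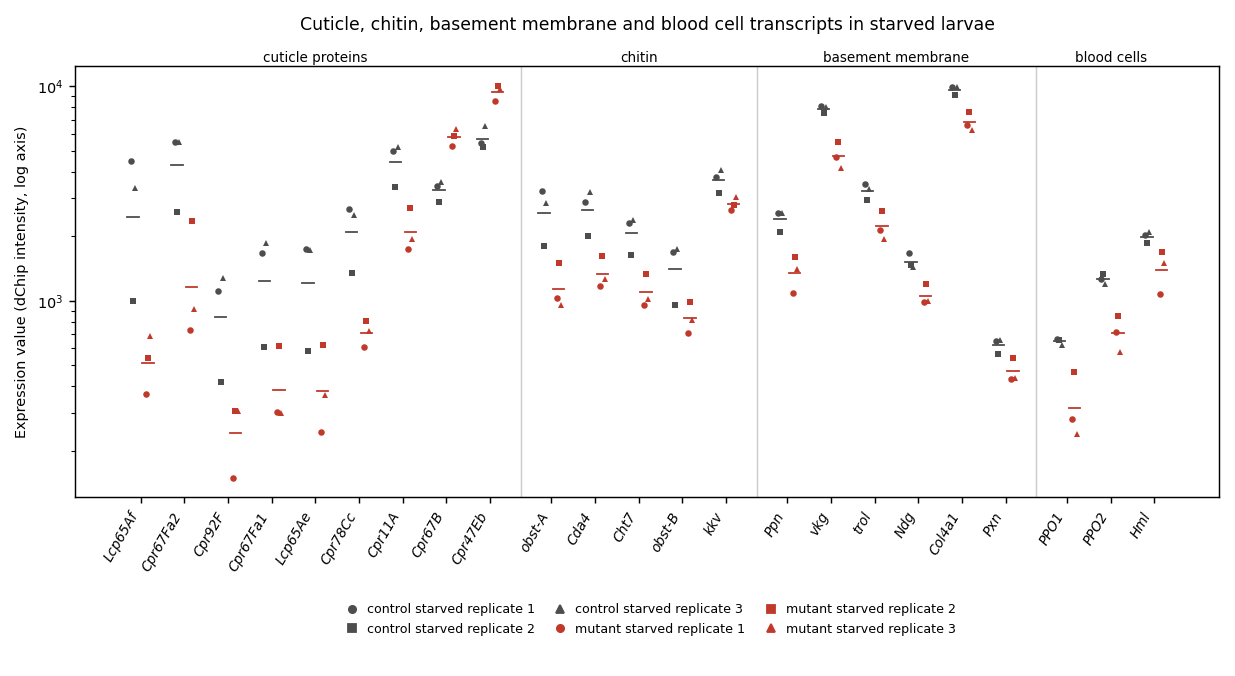
Expression values in each of the 6 starved arrays (dChip intensity, log axis; grey, control; red, mutant; marker shape, replicate; bar, geometric mean of 3 arrays) of cuticle, chitin, basement membrane and blood cell genes. In Lcp65Af, Cpr67Fa1 and Lcp65Ae the square of control replicate 2 lies far under the other control arrays, and in Cpr67Fa1, Lcp65Ae and obst-B it overlaps with the mutants.

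Markers of other tissues were summed in the same table. The 9 measured of 12 muscle markers summed to 100662 to 107715 on control and 111547 to 118775 on mutant arrays, the 4 of 7 midgut markers to 44082 to 52855 and 54686 to 56277, and the 5 of 6 Malpighian tubule markers to 4632 to 6257 and 4241 to 5235. The sums were thus higher in mutants without overlap for muscle and midgut. Intensities were added, so the brightest markers weigh most in a sum. Lists of digestive genes in the dChip values leaned the other way from the midgut sum. Digestive proteases had a median difference of -0.18, with 17 genes below 0 and 6 above. Carbohydrases had a median of -0.26, with 14 below 0 and 5 above. A rise of midgut transcripts as a whole is therefore not shown. The 9 of 10 neuron markers overlapped (2537 to 2766 and 2258 to 3114), as did the 3 oenocyte markers (4214 to 5136 and 4749 to 5509). The 2 glial markers were higher in mutants (1127 to 1215 and 1278 to 1471), and the 8 male germline markers lower (846 to 1042 and 582 to 804). The 6 salivary gland markers were near the floor in both genotypes (46 to 100 and 66 to 94), with Sgs1 and Sgs3 under 16 on every starved array. No marker of the summed tissues was called in the series matrix. In the dChip table the lists of muscle (0 of 15, median 0.11), neurons and glia (0 of 12), salivary gland (0 of 9) and storage proteins (0 of 2) had no call. Malpighian tubules and oenocytes had 2 of 8, the potassium channel Irk2 (-0.57 ± 0.12) and the phosphate transporter NaPi-T (-0.52 ± 0.08), and male germline 2 of 16, Mst84Dc (-0.56 ± 0.14) and Mst84Dd (-0.49 ± 0.12). All 4 were lower, and all 4 calls were lost in the series matrix. That of Irk2 was also lost without control replicate 1 or mutant replicate 3, that of Mst84Dd without control replicate 2 or 3 or mutant replicate 1, and that of Mst84Dc without any 1 of the starved arrays (adjusted p up to 0.127). The part of tissue make-up in the metabolic genes was not tested.

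M28 metallopeptidases, which are secreted peptidase-like proteins, fell in 5 of 7 (median -0.54). CG10073 read 871, 729 and 1539 in controls and 217, 277 and 121 in mutants (-2.36 ± 0.30, adjusted p = 0.000947), and CG10081 490, 261 and 459 and 101, 129 and 59.7 (-2.08 ± 0.32). No mutant array reached the lowest control array of either gene. CG10051 (-1.14 ± 0.31), CG10062 (-0.54 ± 0.14) and CG13160 (-0.45 ± 0.10) were lower with calls lost without control replicate 2 or 3 or mutant replicate 1 or 3, and for CG10051 and CG10062 also without the other starved arrays (adjusted p up to 0.173). The number called was 3 without mutant starved replicate 2 and 2 without control starved replicate 2. Of 22 odorant-binding proteins 3 fell, led by Obp99a (2554, 1891 and 1947 and 848, 791 and 658, -1.47 ± 0.16), which kept its call. Obp19c (-0.59 ± 0.14, 0.00 in the series matrix) and Obp56d (-0.48 ± 0.13) did not, in the series matrix or without control replicate 2 or 3 or mutant replicate 1 or 3.

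Digestive and immune genes had few calls. Of 23 digestive proteases zetaTry fell (-0.48 ± 0.10), with a call lost without control or mutant replicate 3 (adjusted p up to 0.0604). Of 19 carbohydrases the maltase Mal-B2 rose from 1799, 2132 and 2008 to 3552, 3850 and 3335 (0.86 ± 0.12), and the lysosomal α-mannosidase LManIII fell. Of 22 antimicrobial peptide and peptidoglycan recognition genes PGRP-LB, an amidase that removes bacterial fragments, was called (232, 281 and 226 and 515, 414 and 544, 0.99 ± 0.20), a call lost without control replicate 1 or 3 or mutant replicate 3 (adjusted p up to 0.0555). Nuclear receptors had 1 call of 11, Hnf4 itself. Of 6 ecdysone response and juvenile hormone genes Jheh2 was called.

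Among genes outside the lists, CG11350 read 23730, 15036 and 22917 in controls and 7505, 15681 and 9095 in mutants and overlapped (-0.98 ± 0.24). CG32198 rose from 3920, 8133 and 6119 to 11596, 13457 and 17811 (1.28 ± 0.22), the lysosomal protease CtsL1 from 8930, 8910 and 8685 to 11605, 11576 and 10834 (0.36 ± 0.07) and the mucin Mur18B changed by 0.59 ± 0.13. CG7953 (-0.69 ± 0.17) and CG7920 (-0.37 ± 0.08) were lower. CG11350, Mur18B, CG7953 and CG7920 lost their calls without control replicate 1 or 3 or mutant replicate 3 (adjusted p up to 0.137). Among the largest rises outside the lists were nol (1522, 1846 and 2172 and 3830, 8895 and 6676, 1.74 ± 0.24), CG11300 (1.67 ± 0.26) and Jig (358, 195 and 227 and 2384, 794 and 1685, 2.55 ± 0.49), and among the largest falls CG11162 (1685, 1253 and 1534 and 355, 384 and 309, -2.09 ± 0.51). CG11162 lost its call without 5 of the starved arrays, all but mutant replicate 2 (adjusted p up to 0.115).

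Genes next to Hnf4 were called often. Of the 10 nearest measured genes on each side, 7 of 20 were called (35%), of 25 on each side 18% and of 50 on each side 14%, against 8.72% over the chromosome arm 2L, where 116 of 1331 genes were. CG9289, the third measured gene to one side, read 28.1, 33.9 and 34.7 in controls and 1857, 1573 and 2287 in mutants, the largest change of any probe set (5.87 ± 0.16, adjusted p = 7.32e-09). The difference was 4.88 with a floor of 64. In fed larvae it was 3.04 ± 0.16, with values of 45.9, 51 and 45.5 in controls and 460, 309 and 415 in mutants. Trs23, a vesicle-tethering subunit beside Hnf4 in this order, read 356, 345 and 362 and 146, 161 and 144 (-1.24 ± 0.07, adjusted p = 1.36e-06). raw, on the other side, rose from 2494, 2656 and 2552 to 4162, 3769 and 4248 (0.66 ± 0.07). PrBP (-0.92 ± 0.24), the extracellular glycoprotein Glt (-0.61 ± 0.14), the peptidase Acer (-0.46 ± 0.11) and LManIII (-1.51 ± 0.38) were lower, with calls lost without control or mutant replicate 1 or 3, for Glt and LManIII also without control replicate 2, and for LManIII without mutant replicate 2 (adjusted p up to 0.161). LManV (-0.54 ± 0.28) and LManVI (-0.35 ± 0.35) beside it were not called. The genotypes carried different chromosomes around this locus, with deletions or precise excisions, so linked differences and the loss of the gene cannot be told apart for these neighbours.

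Probe sets measured in the series matrix alone added 74 calls of 9100 (0.813%), 34 higher and 40 lower. CG14787 read 675, 648 and 805 in controls and 94.8, 90.2 and 107 in mutants (-2.86 ± 0.12, adjusted p = 8.04e-06). The drosomycin-like peptide gene Drsl2 went from 461, 250 and 215 to 47.3, 28.4 and 28.3 (-3.12 ± 0.28), and no mutant array of it reached 50. Over the alternatives other than array omissions its difference was -3.12 to -2.19. The β-galactosidase Gal (-2.21 ± 0.35), the iron regulatory protein Irp-1B (-1.12 ± 0.17), CG12375 (-0.97 ± 0.07) and CG7900 (-1.09 ± 0.15) were lower. The lipase gene inaE (1.21 ± 0.17), the C2-domain gene Mctp (1.60 ± 0.21) and Hus1-like (1.23 ± 0.20) were higher, as were Cyp6v1 (0.77 ± 0.15) and Ugt49B2 (0.99 ± 0.18), with values of 36.3, 25.3 and 28.8 in controls and 53.6, 74.3 and 51.9 in mutants. Of these, Gal, Irp-1B, Hus1-like, Cyp6v1 and Ugt49B2 lost their calls without 2 to 5 of the starved arrays, each without control replicate 3 (adjusted p up to 0.148), and inaE, Mctp and CG7900 with the arrays of the starved groups alone. The difference of Ugt49B2 was 0.07 with a floor of 64, and its call was also lost with a floor of 1, quantile normalization, a replicate block, the trend and robust options of eBayes or the starved groups alone. CG13215 (2.49 ± 0.51), CG11226 (1.86 ± 0.31), side-II (-1.77 ± 0.28), CG2962 (-1.85 ± 0.28) and CG31161 (-1.66 ± 0.31) had values under 300 on every starved array and calls that were lost with a floor of 1, of 64 or of either, and without control replicate 1. With a floor of 64 the difference of side-II was 0.00, that of CG11226 0.40 and that of CG2962 -0.61. The count in this table was 27 with a floor of 1.

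The same contrast in fed larvae, on separate arrays, called 102 probe sets (1.05%). The count was 272 without control fed replicate 3, 63 in the series matrix and 47 to 272 over all omissions of 1 array. Of the 102, 72 were called in starved larvae as well, which is 70.6% of the fed and 9.8% of the starved calls. Of these 72, 59 were lower under both diets and 8 higher under both, and 5 moved in opposite directions. In fed mutants 10 of the 21 β-oxidation genes and 4 of the 8 peroxisomal enzymes were lower, against 0.981% of all genes. The elongase CG16904 was lower in starved (-0.94 ± 0.14) and higher in fed mutants (0.76 ± 0.14). The genes retm (0.41 ± 0.08 starved, -0.51 ± 0.08 fed) and Gug, a co-repressor (0.25 ± 0.07 starved, -0.36 ± 0.07 fed), went the other way. The starved calls of both were lost in the series matrix, and that of Gug without any starved array but mutant replicate 2 (adjusted p up to 0.187).

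Whether the genotype difference itself depended on diet was tested as an interaction in the same fit. It was called for 250 probe sets (2.59%), 176 with a difference that was more positive in starved larvae and 74 more negative. After median centring of the arrays the split was 131 and 88 of 219, and in the series matrix 26 of all 18769 probe sets were called. At gene level 2.02% were called as more positive and 0.833% as more negative. Of the 736 starved calls 218 had a called interaction, 157 higher in mutants and 61 lower. In all 218 it had the sign of the starved difference. The interaction contains the starved difference, so among starved calls this shared sign follows in large part from the choice.

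Fatty acid synthesis genes had 0 calls of 18 in fed larvae, and 2 of them, FASN1 and ACC, had a called interaction. FASN1 read 21799, 19291 and 23567 in fed controls and 20694, 23518 and 20889 in fed mutants, with overlap, and the fed difference was 0.01 ± 0.13, which makes an interaction of -2.66 ± 0.19 (adjusted p = 5.79e-05). ACC had a fed difference of -0.03 ± 0.20 and an interaction of -1.30 ± 0.29, close to the threshold (adjusted p = 0.0424). Whether single interaction calls held under the alternatives was not examined. The glutamine synthetases had called interactions too, with -0.04 ± 0.12 in fed larvae and an interaction of -1.25 ± 0.17 for Gs2 and 0.05 ± 0.15 and -0.96 ± 0.21 for Gs1. For β-oxidation interactions were called for 7 of 21, for example yip2 (-2.05 ± 0.16 fed, interaction -1.29 ± 0.23) and colt (-0.82 ± 0.09 fed, interaction -1.37 ± 0.13). Tmlh (-1.40 ± 0.14 fed, interaction -0.01 ± 0.20) and Hacl (-1.18 ± 0.14 fed, interaction 0.01 ± 0.20) were lower under both diets, and their interactions were not called.

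Detoxification genes gave the 3 most positive called interactions. Cyp6a8 read 1206, 1042 and 959 in fed controls and 1184, 1048 and 1333 in fed mutants (0.15 ± 0.17), and its interaction was 3.94 ± 0.24 (adjusted p = 3.16e-05). Those of Cyp6a2 and Cyp6w1 were 3.46 ± 0.30 and 3.33 ± 0.23, with Cyp6w1 also called in fed mutants (1.03 ± 0.16). Interactions were called for 9 of 68 P450s, 8 more positive and 1 more negative, and for 4 of 30 glutathione S-transferases. Ugt35C1 rose under both diets (1.52 ± 0.09 fed) with no called interaction (0.37 ± 0.13). Autophagy genes had 0 calls in fed larvae and 3 called interactions of 20, led by Atg4a (0.73 ± 0.09). The most negative called interactions were those of the M28 peptidases CG10081 (-3.45 ± 0.45) and CG10073 (-3.13 ± 0.43), which were not called in fed larvae (1.38 ± 0.32 and 0.77 ± 0.30).

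**Figure D5:**
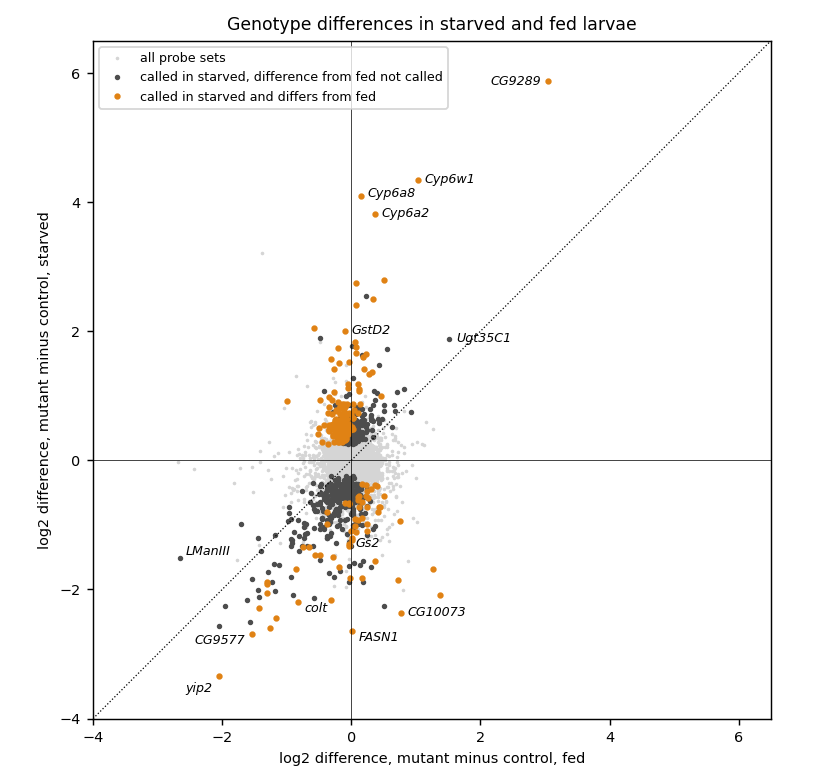
Log2 difference of mutant minus control in fed larvae (x axis) and starved larvae (y axis) for all 9669 probe sets (pale), with those called in starved larvae (dark grey) and those called in starved larvae whose difference also depended on diet (orange, 218). The dotted line marks equal differences under both diets. FASN1 and Cyp6a8 lie near 0 on the fed axis, while yip2 and Ugt35C1 moved under both diets.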

How the data were processed

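Total RNA of larvae was extracted with Trizol, labelled with biotin in 1 cycle and hybridised to single-colour Affymetrix arrays, per the labels' protocols. The authors deposited intensity values on a linear scale, normalized with dChip and limited to Present calls, which is stated per the file headers. The other deposited table, the series matrix, holds intensity values of 18769 probe sets after 183 array controls were left out, 9100 of them absent from the dChip table. How those were computed is not given in the sources used here. Precision is limited by the small number of arrays. The p-values reflect how triplicate samples differ, which may be technical.

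Values under a floor of 16 were set to it before log2 was taken. The fit by limma 3.58.1 (R 4.3.3) used all 12 arrays and a mean for each of the 4 groups. P-values were adjusted over all probe sets of a table by the Benjamini-Hochberg method, at a threshold of 0.05, and the code was tested on simulated data. Names came from the platform annotation, which gave 1 symbol for 7970 probe sets, several for 248 and none for 1451. The probe set of highest mean stood for its gene. For genes named from the series matrix alone, the probe set of smallest adjusted p in the starved contrast stood for its gene instead. That choice was made on the outcome. Members and gene lists were chosen with earlier results of these data known, 7 list entries matched no single gene, and genes of mitochondrial DNA were not measured. The rule for genes the text may name took the 20 largest called rises and falls without overlap, up to 8 called members per list, any member of lists with fewer than 3 called or 12 measured, Hnf4 with 10 neighbours on each side, the 10 largest interactions and series matrix changes in each direction, and the 10 called genes of highest mean. Genes chosen after their values were seen were wal, Echs1, CG4592, whd, Tmlh, CRAT, Hacl, Acox3, SREBP, bmm, Lsd-1, Lsd-2, mdy, Hacd1, Sc2, Acbp2, Acbp5, Gart, Pfas, Tdc1, Alp10, Miox, SLC5A11, Cyp18a1, Cyp28d2, Cyp310a1, Cyp6a18, Cyp4d2, Cyp4ac3, Cyp4d20, GstE1, CG10550, Cpr47Eb, Cpr51A, Cpr76Bd, Cpr78Ca, Lcp65Aa, retm, Gug, Pex14, Pex10, Pex16, GstD9, Irp-1B, Cyp6v1, CG7900 and CG12375. Alternatives were floors of 1 and 64, quantile normalization, median centring, no dimmest 40% of probe sets, the replicate number as a block, eBayes with trend and robust, array weights, the compared groups alone, a minimum of 1.5-fold, the series matrix and the omission of each array. Promoter sequences were not analysed here.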

Additional observations from a re-analysis of the deposited data

Results flagged for a closer look

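The genes below are those named in the text that were called in starved larvae and also had a called interaction. The difference between mutants and controls was not the same in starved and fed larvae, by limma's interaction term adjusted over all probe sets. The interaction contains the starved difference, so the signs shared by genes below follow in large part from this choice. The value in brackets is the log2 difference in starved larvae minus that in fed larvae, so a negative value means a lower, and a positive value a higher, mutant level relative to control under starvation than on food. In the series matrix 26 of all 18769 probe sets had a called interaction, against 250 of 9669 in the dChip table. Whether the interaction calls of single genes held under the alternatives was not examined.

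In fatty acid oxidation and carnitine synthesis these were yip2 (-1.29), CG4598 (-1.34), scu (-1.28), colt (-1.37), Acadvl (-0.60), Mtpbeta (-0.58), Arc42 (-0.84), CG5321 (-0.75), CG10814 (-1.85), CG9577 (-1.15), Dhrs4 (-0.86) and Pex5 (-0.59). All 12 values were negative. In fatty acid synthesis, activation and transport the genes were FASN1 (-2.66), ACC (-1.30), Acsf2 (-1.17), CG16904 (-1.70), Npc2e (-1.45), Npc2b (0.71) and CG5966 (-1.03), and Npc2b alone had a positive value among them. Enzymes and transporters of intermediary metabolism were Gs1 (-0.96), Gs2 (-1.25), Idh (-0.68), Bcat (0.93), Pfas (0.86), Tdc1 (1.08), SLC5A11 (-0.89) and out (1.42).

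Among P450 genes the values were positive for Cyp6w1 (3.33), Cyp6a8 (3.94), Cyp6a2 (3.46), Cyp4d14 (2.18), Cyp6a20 (1.79), Cyp4p1 (1.67), Cyp4e2 (1.42) and Cyp18a1 (0.96) and negative for Cyp4e3 (-1.80). Glutathione S-transferases were GstD2 (2.11), GstD3 (1.90), GstE5 (0.99) and GstD1 (0.64), with GstD9 (1.12) in the series matrix, and all 5 were positive. Other enzymes of conjugation and reduction were CG2065 (2.28), CG6908 (2.32), CG9498 (1.07), CG31436 (0.53), CG10550 (0.81), CG18765 (-1.06) and Jheh2 (1.21).

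Nutrient signalling and autophagy gave Sesn (0.78), bigmax (0.53), SNF4Agamma (0.68), Atg4a (0.73), Atg18a (0.66) and Atg16 (0.45), all positive. Cuticle, chitin and basement membrane gave Cpr67Fa1 (-2.96), Cpr78Cc (-1.93), Cpr11A (-1.09), Lcp65Aa (-0.68), Cda4 (-1.23), vkg (-0.84), Cpr67B (1.00) and Cpr47Eb (1.09), where the last 2, the cuticle genes that rose, were positive. Control starved replicate 2 was the lowest control of Cpr67Fa1, Cpr78Cc, Cpr11A and Cda4. The remaining genes were CG10073 (-3.13), CG10081 (-3.45), CG13160 (-0.75), Obp99a (-1.0), Obp19c (-0.85), zetaTry (-0.73), Mal-B2 (0.93), nol (1.94), CG11300 (1.60), CG9289 (2.84), raw (0.64), retm (0.92) and Gug (0.62), and Drsl2 (-3.12) in the series matrix. Drsl2 read 4.1, 10.5 and 10.9 in fed controls and 9.6, 3.6 and 6.1 in fed mutants, all under the floor. Its fed difference of 0.00 was thus set by the floor, and its value here is the starved difference. A genotype difference of Drsl2 in fed larvae could not be measured. Among all genes listed, CG16904, retm and Gug had called differences of opposite sign under the 2 diets.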

How the results depend on the processing

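None of the 214 called genes named in the text reversed its sign in any setting tried, but the differences of side-II with a floor of 64 and of Obp19c in the series matrix were 0.00. Of the 214, 105 kept their call in all settings apart from a minimum fold. Of the 21 uncalled genes, Acox57D-p and Pepck1 changed sign in some. The series matrix ended 83 calls, a replicate block 36 and the arrays of the starved groups alone 34. The omission of 1 starved array ended 23 (mutant replicate 2) to 87 (control replicate 3). Array weights moved the 736 starved calls to 2439 and the 102 fed calls to 193. They moved the 250 interactions to 1208 and the 74 calls of the series matrix alone to 180. A minimum of 1.5-fold moved the starved calls to 357. The series matrix gave 376 starved, 63 fed and 26 interaction calls over all its 18769 probe sets. The compared groups alone gave 41 fed calls and 46 in the series matrix alone, where a floor of 1 gave 27. The cause of these shifts was not tested. Leaving out 1 array gave 329 to 940 starved calls, 47 to 272 fed calls (272 without control fed replicate 3, 59 to 64 without control fed replicate 2 or mutant fed replicate 1 or 2, 47 without mutant fed replicate 3), 81 to 549 interactions (549 and 447 without control fed replicate 3 and mutant starved replicate 2) and 44 to 83 calls in the series matrix alone, the lowest without mutant starved replicate 1 and 47 without control starved replicate 3. The median starved difference of all probe sets lay between -0.019 and 0.016. The share of higher calls among fed calls was 17.6%, and 31.7% in the series matrix.

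Deviations of same-numbered starved arrays from their group means correlated at -0.222, -0.205 and -0.013, so the numbers gave no sign of pairing between the starved groups. Over all pairs of groups these correlations ranged from -0.396 to 0.283. For fed controls and starved mutants they were 0.038, 0.251 and 0.164, and there each array matched its own number best. With the replicate number as a block 610 starved, 74 fed and 132 interaction calls were made, and 36 in the series matrix alone.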
